A study of Homo sapiens with 50 samples.

Results

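The subject is a group of 8 enzymes of the mevalonate pathway, ACAT2, HMGCS1, MVK, PMVK, MVD, IDI1, FDPS and GGPS1, out of 18239 genes measured in A549, an established line from a human lung adenocarcinoma. The rule for the group uses their place in the pathway and no measured value, although the group was proposed with earlier results of these data known. Each gene is followed through 1 probe set, the one whose mean over the 50 Affymetrix HG-U219 arrays is highest. Before the change of medium, cells in full RPMI medium were sampled. The other cells were moved to a basal medium (BME with NEAA, the non-essential amino acids), with or without serine, and after 24 h received compound 16 at 1 uM or DMSO, the solvent. The groups were compound 16 without serine, DMSO without serine, compound 16 with serine and DMSO with serine, each at 0, 1.5, 6 and 24 h after the addition, and the cells before the change of medium. The 17 groups held 3 arrays each, apart from DMSO with serine at 1.5 h, which held 2. By its title, the series concerns chemical activation of PKM, a glycolytic pyruvate kinase, and a resulting need of the cells for serine. Arrays are named by the number that ends their title. Every level is a log2 probe set signal, and every difference is on the log2 scale with its standard error (SE) from 1 limma fit over all 50 arrays. A gene was called, and is said to have risen or fallen, at an adjusted p under 0.05 over all 18239 genes of a comparison.

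The mevalonate pathway turns acetyl-CoA into the isoprenoid units from which cells make cholesterol, dolichol, ubiquinone and the lipid anchors of prenylated proteins. ACAT2, the cytosolic acetoacetyl-CoA thiolase, joins acetyl-CoA units, and HMGCS1, the cytosolic HMG-CoA synthase, adds a further unit. MVK, the mevalonate kinase, and PMVK, the phosphomevalonate kinase, phosphorylate mevalonate in turn, and MVD decarboxylates the product to isopentenyl diphosphate. IDI1 isomerises that unit, FDPS joins such units to farnesyl diphosphate, and GGPS1 extends this to geranylgeranyl diphosphate. When sterols run low, the transcription factor SREBP-2, made from SREBF2, is released from the endoplasmic reticulum and raises transcription of many genes of the pathway, while INSIG1 holds it back.

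The letters just before a gene's start are shown because several of the 8 genes moved together in the comparisons that follow. RefSeq (GRCh38.p14) promoter records matched 7 of the 8 genes with 12 windows of 250 bases before a start site, and ACAT2 is named only. The windows that end at the outer edge of the annotated gene are printed, 5′ to 3′, with capitals marking the CCAAT box, the letters CCAAT or its reverse complement ATTGG, which NF-Y, a partner of SREBP-2 on sterol-regulated promoters, is known to bind.
HMGCS1, chr5:43313413-43313662, minus strand: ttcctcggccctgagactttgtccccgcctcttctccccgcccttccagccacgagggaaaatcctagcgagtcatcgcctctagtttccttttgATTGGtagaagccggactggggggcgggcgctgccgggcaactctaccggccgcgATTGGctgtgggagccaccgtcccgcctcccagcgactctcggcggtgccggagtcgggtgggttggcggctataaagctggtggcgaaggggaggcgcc
MVD, chr16:88663092-88663341, minus strand: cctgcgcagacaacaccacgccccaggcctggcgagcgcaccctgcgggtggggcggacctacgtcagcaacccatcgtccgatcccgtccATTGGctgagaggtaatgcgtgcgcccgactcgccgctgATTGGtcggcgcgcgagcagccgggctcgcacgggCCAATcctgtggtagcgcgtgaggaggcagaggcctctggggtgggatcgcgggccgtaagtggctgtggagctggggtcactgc
IDI1, chr10:1056705-1056954, minus strand: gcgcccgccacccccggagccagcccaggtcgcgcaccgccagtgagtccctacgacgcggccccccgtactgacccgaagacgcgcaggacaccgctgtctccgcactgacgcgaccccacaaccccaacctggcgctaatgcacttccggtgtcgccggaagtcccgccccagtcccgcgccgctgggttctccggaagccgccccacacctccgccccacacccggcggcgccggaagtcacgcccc
FDPS, chr1:155308616-155308865, plus strand: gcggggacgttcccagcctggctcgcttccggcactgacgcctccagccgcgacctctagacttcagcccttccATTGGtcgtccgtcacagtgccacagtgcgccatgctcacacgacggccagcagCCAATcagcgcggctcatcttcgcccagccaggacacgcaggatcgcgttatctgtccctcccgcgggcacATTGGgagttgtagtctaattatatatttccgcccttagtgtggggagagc
GGPS1, chr1:235326966-235327215, plus strand: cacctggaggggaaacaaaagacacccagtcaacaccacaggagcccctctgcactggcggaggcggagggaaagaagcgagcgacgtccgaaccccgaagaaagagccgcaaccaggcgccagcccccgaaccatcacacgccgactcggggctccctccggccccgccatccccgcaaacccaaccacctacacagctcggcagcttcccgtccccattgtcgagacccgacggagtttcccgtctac
CCAAT was searched on both strands and lay in 7 of the 12 windows and in 32% of all 35116 promoters of the table cut to the same length. The printed HMGCS1 window held 2 matches, at -155 and -100, counted from the base just before the start site as -1 to the first base of the match. MVD held 3, at -159, -120 and -85, and FDPS held 3, at -176, -122 and -51. The single MVK window held 5, while the single PMVK window held none. Of the windows of IDI1, the printed one held none and the other two held 3 and 2, and of those of GGPS1 only 1 held a match, at -240. The letters TCACNCCAC, a sterol regulatory element, lay in 0 of the 12 windows and in 0.883% of all promoters. Only these exact letters were searched, with N as any base, so variant forms of the element would be missed. The Sp1 box GGGCGG lay in 11 of the 12 windows and in 42.6% of all promoters. Some windows of HMGCS1 and of IDI1 overlap each other, so the 12 are not independent. These are matches of letters and do not show binding, and their part in the levels was not tested.

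The labelled line was checked first. The A549 markers KRT8, KRT18, KRT19, AKR1B10, AKR1C1 and ALDH1A1 had group means between 11.84 and 14.42, and EPCAM and CDH1 had means between 9.22 and 9.88. Markers of blood, endothelial and connective tissue cells, PTPRC, CD3E, PECAM1, COL1A1, COL3A1 and DCN, had group means between 3.83 and 5.11. Array medians lay between 5.40 and 5.54. ACTB probe sets at the 3′ end read above those at the 5′ end, a sign of RNA quality, by 1.01 to 1.37 as group means, the most in cells before the change of medium. Nothing in the labels ties the arrays of a group to separate cultures, so p-values here reflect only how far these arrays vary, which could be technical variation. In bulk RNA, a lower signal from fewer cells that express a gene and one from less RNA per cell cannot be told apart.

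After 24 h in the new medium, 7 of the 8 enzymes had risen and PMVK had fallen in both media, in DMSO at 0 h against the cells before the change. All 8 were called in each medium, while 28.6% of all genes were called for the medium without serine and 21.7% for the medium with serine. Both comparisons use the same 3 arrays of cells before the change, so they are not independent. No group stayed in the first medium for these 24 h, and the arrays before the change carry the lowest numbers. The change of medium, the time in culture and any order of handling that these numbers reflect therefore cannot be told apart. The labels do not say what the numbers stand for. IDI1 had 10.38, 10.69 and 10.61 without serine and 10.76, 10.60 and 10.54 with serine, against 9.70, 9.65 and 9.40 before the change. It was higher by 0.98 ± 0.10 without serine and by 1.05 ± 0.10 with serine, a 1.97-fold and a 2.07-fold level, and no array of either medium overlapped with those before the change. MVK had 7.57, 7.89 and 7.79 without serine and 7.68, 7.50 and 7.60 with serine, against 6.60, 6.74 and 6.72 before the change, a rise of 1.06 ± 0.09 and of 0.91 ± 0.09. HMGCS1 rose by 0.63 ± 0.11 and 0.77 ± 0.11 in the media without and with serine.

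ACAT2 and FDPS, at the opening of the pathway and at the farnesyl step, rose further with serine than without. ACAT2 had 11.26, 11.15 and 11.25 without serine and 11.58, 11.61 and 11.72 with serine, against 10.64, 10.73 and 10.77 before the change. Its rise was 0.51 ± 0.06 without serine and 0.92 ± 0.06 with serine. For FDPS the rise was 0.61 ± 0.06 without serine and 0.96 ± 0.06 with serine. The difference between these rises is the difference between the media at 0 h in DMSO, tested further on. GGPS1 rose by 0.35 ± 0.06 and 0.27 ± 0.06 without and with serine on the probe set followed here, and by 0.66 to 0.88 on its other probe sets. MVD rose by 0.53 ± 0.17 without serine (adjusted p = 0.0195) and by 0.80 ± 0.17 with serine, and its arrays without serine overlapped with those before the change. PMVK alone fell, by 0.32 ± 0.11 on the log2 scale without serine (adjusted p = 0.0287) and by 0.42 ± 0.11 with serine. With serine that call was lost with its second probe set, at -0.20 (adjusted p = 0.255). Its levels were 8.36, 8.72 and 8.61 without serine and 8.29, 8.49 and 8.58 with serine, against 8.88, 8.83 and 8.92 before the change. Without serine the MVD and PMVK calls were each lost when array 1, 3 or 19 was left out, with MVD at 0.39 to 0.71 and PMVK at -0.39 to -0.22 over the arrays left out. The plot of signals on each array shows these levels beside the later times. The ACTB 3′ minus 5′ signal also differed, with group means of 1.14 without serine and 1.22 with serine, against 1.37 before the change, and its part in these differences was not tested.

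**Figure D1:**
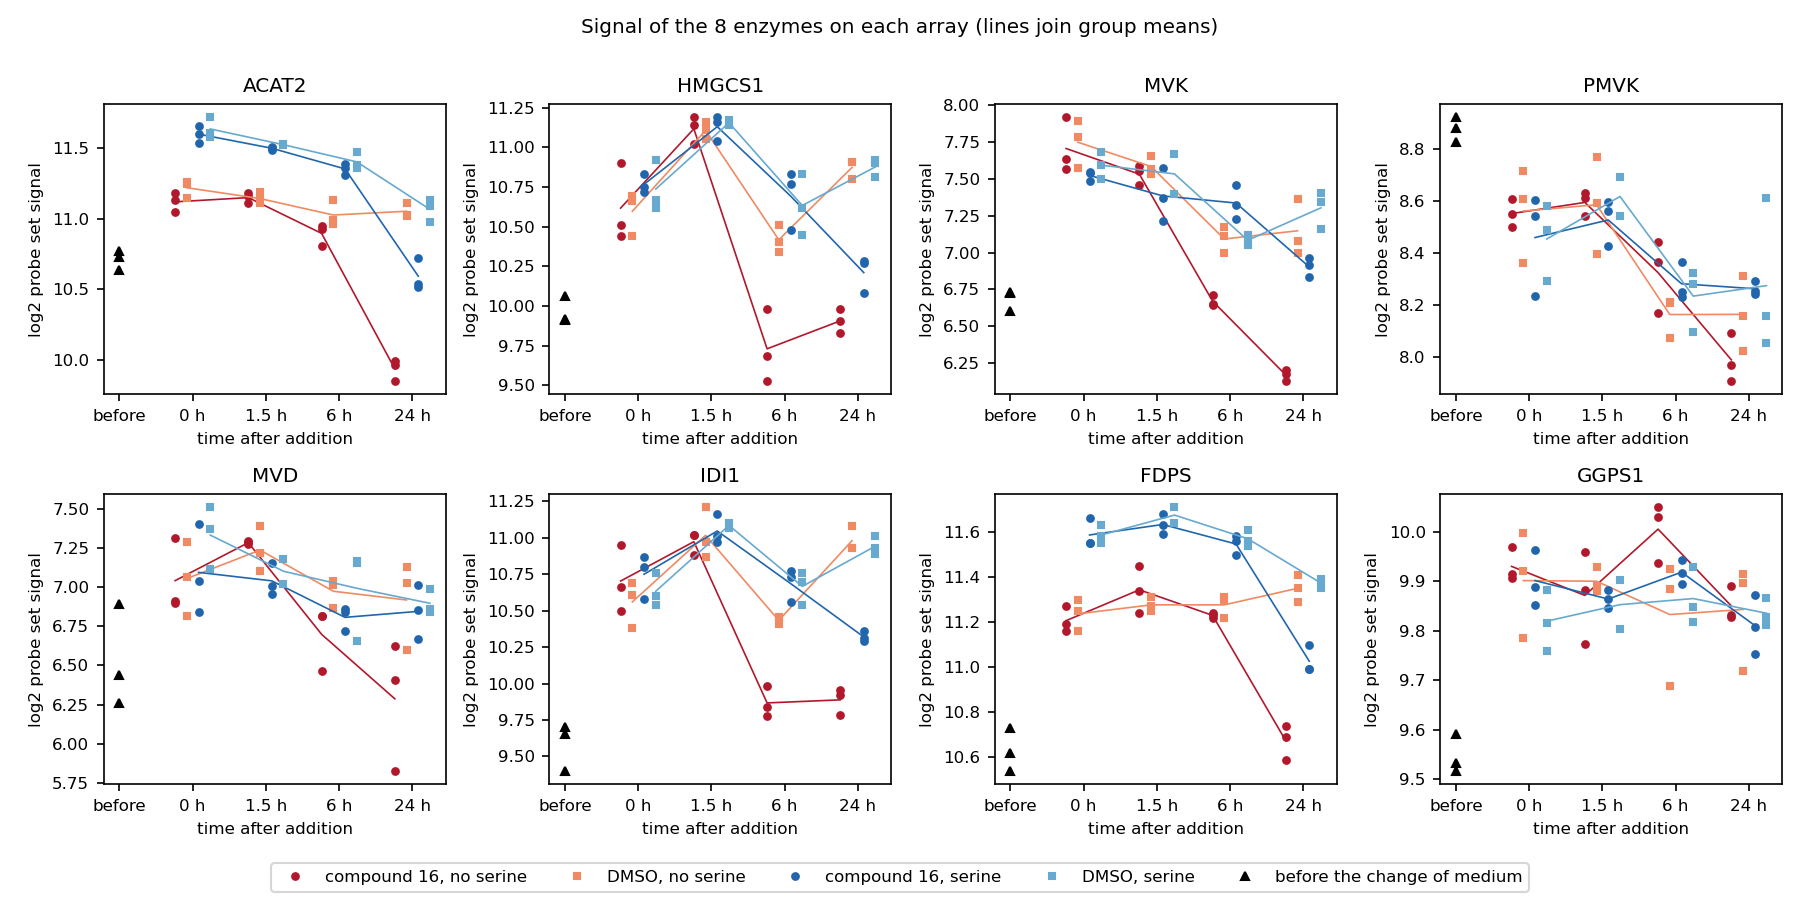
Log2 probe set signal of each enzyme (y axis, own scale per gene) on every array before the change of medium and 0, 1.5, 6 and 24 h after the addition (x axis, not to scale), with circles for compound 16, squares for DMSO, triangles for cells before the change and lines through group means. At 24 h the compound 16 arrays without serine lie lowest for ACAT2, at 9.85 to 9.99, and for MVK, at 6.13 to 6.20.

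Compound 16 was first set against DMSO in the medium without serine. At 0 h and 1.5 h limma called 0 of the 8 enzymes, and none had an unadjusted p under 0.05. Of all genes, 0% were called at 0 h, with 1318 at an unadjusted p under 0.05, and 0.0822% at 1.5 h. The widest difference among the 8 was 0.14 ± 0.10 for IDI1 at 0 h.

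At 6 h without serine 3 of the 8 enzymes had fallen, HMGCS1, IDI1 and MVK, while 2.72% of all genes were called. HMGCS1 had 9.68, 9.53 and 9.98 under compound 16, against 10.51, 10.34 and 10.40 in DMSO. Every compound 16 array lay below every DMSO array, and the difference was -0.69 ± 0.11, a 1.61-fold lower level (adjusted p = 3.85e-05). IDI1 had 9.78, 9.84 and 9.99 under compound 16, against 10.41, 10.43 and 10.46 in DMSO, a difference of -0.57 ± 0.10 (adjusted p = 0.000263). MVK had 6.71, 6.65 and 6.65 under compound 16, against 6.99, 7.11 and 7.17 in DMSO, a difference of -0.42 ± 0.09 (adjusted p = 0.00604). Its second probe set stood at -0.34 ± 0.14 and was not called (adjusted p = 0.335). Adjusted p-values of further probe sets are over all probe sets. The other 5 did not pass. FDPS stood at -0.05 ± 0.06, ACAT2 at -0.13 ± 0.06, MVD at -0.28 ± 0.17, PMVK at 0.16 ± 0.11 and GGPS1 at 0.17 ± 0.06. With the mean of its probe sets ACAT2 was called, at -0.19 (adjusted p = 0.0134). The 95% interval for FDPS ran from -0.16 to 0.07, so a fall of the size of that of HMGCS1 lay outside it.

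At 24 h without serine 6 of the 8 enzymes had fallen, and 7.06% of all genes were called. The median difference over the 8 was -0.82, beside 0.00 over all genes tested. ACAT2 had 9.96, 9.85 and 9.99 under compound 16, against 11.02, 11.03 and 11.11 in DMSO. The 2 sets of arrays were far apart, by -1.12 ± 0.06, a 2.17-fold lower level (adjusted p = 3.51e-17), and only 7 genes of all had a larger negative difference. IDI1 had 9.93, 9.79 and 9.95 under compound 16, against 10.93, 11.08 and 10.93 in DMSO, a difference of -1.09 ± 0.10 (adjusted p = 1.13e-10). MVK had 6.20, 6.13 and 6.18 under compound 16, against 7.00, 7.08 and 7.36 in DMSO, a difference of -0.98 ± 0.09 (adjusted p = 4.8e-10). These 3 enzymes stood at 46.1%, 46.9% and 50.7% of their DMSO signal.

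HMGCS1 had 9.98, 9.83 and 9.91 under compound 16 at 24 h without serine, against 10.91, 10.91 and 10.80 in DMSO, a difference of -0.97 ± 0.11 (adjusted p = 1.41e-08). Over the alternative fits described below, its difference ran from -1.35, with another choice of probe sets, to -0.93, and it stayed called. FDPS, which had stood near its DMSO level at 6 h, had 10.74, 10.69 and 10.59 under compound 16, against 11.35, 11.41 and 11.29 in DMSO. Its difference was -0.68 ± 0.06 (adjusted p = 7.09e-12), again with no overlap of arrays. MVD had 5.83, 6.41 and 6.63 under compound 16, against 7.03, 6.60 and 7.13 in DMSO, a difference of -0.63 ± 0.17 (adjusted p = 0.0171). The MVD arrays overlapped, with 1 compound 16 array above 1 DMSO array. The MVD call was lost when array 99, the first DMSO array or the third DMSO array in the order just given was left out, with differences of -0.80 to -0.40 over the arrays left out. PMVK stood at -0.18 ± 0.11 (adjusted p = 0.439) with overlapping arrays. Of its other probe sets, 1 stood at -0.08 ± 0.11 and the other was called lower at -0.55 ± 0.16 (adjusted p = 0.034), so the probe sets of PMVK differ in their call. GGPS1 had 9.89, 9.83 and 9.83 under compound 16, against 9.72, 9.92 and 9.90 in DMSO, a difference of 0.01 ± 0.06 with a 95% interval of -0.12 to 0.13.

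**Figure D2:**
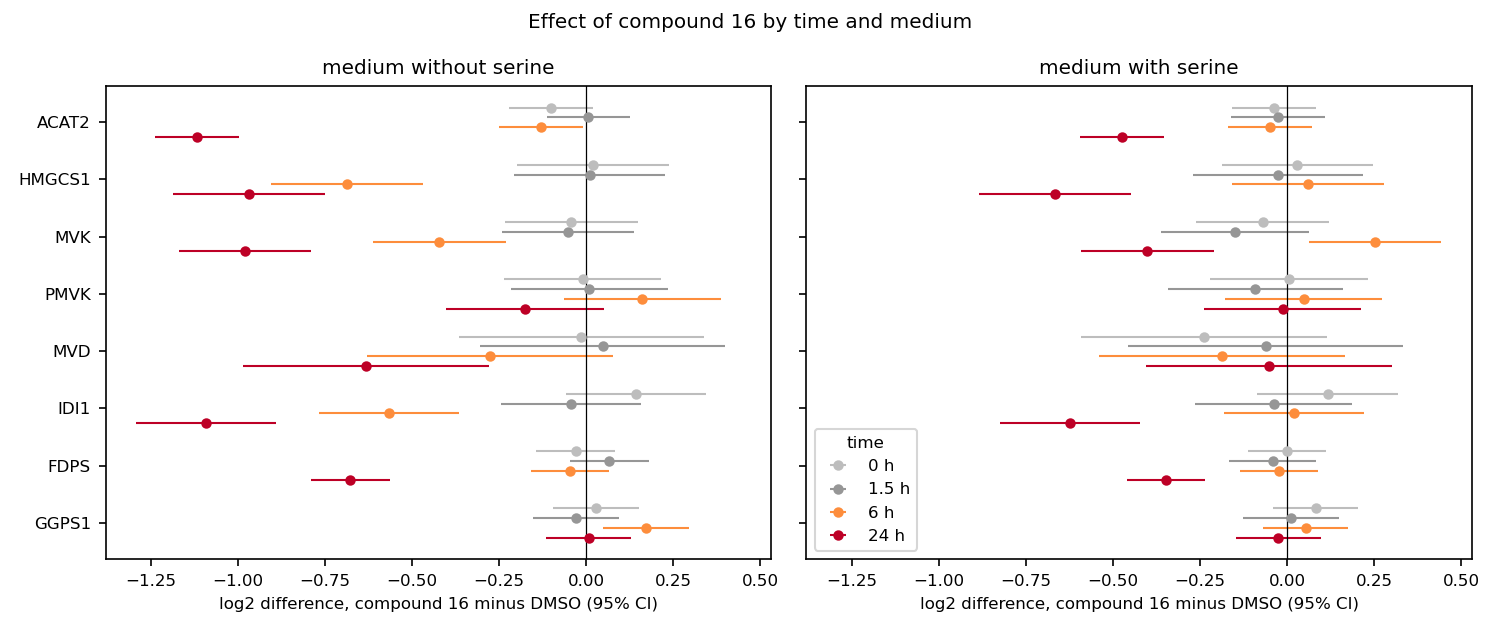
Log2 difference of each enzyme, compound 16 minus DMSO (x axis, points with 95% confidence intervals), in medium without serine (left) and with serine (right), coloured by time after the addition. Without serine HMGCS1, IDI1 and MVK passed the test at 6 h and ACAT2, FDPS and MVD also at 24 h, with ACAT2 at -1.12, while with serine HMGCS1, IDI1, ACAT2, FDPS and MVK passed at 24 h and no enzyme earlier.

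With serine present, limma called 0 of the 8 enzymes at 0, 1.5 and 6 h, and 0% of all genes at each of these times. At an unadjusted p under 0.05, there were 0 of the 8 enzymes at 0 h and at 1.5 h and 1 at 6 h, MVK, and 1029, 614 and 1105 of all genes at 0, 1.5 and 6 h. MVK at 6 h had 7.23, 7.46 and 7.32 under compound 16, against 7.12, 7.05 and 7.08 in DMSO, a difference of 0.25 ± 0.09 (adjusted p = 0.8). At 24 h with serine 5 enzymes had fallen and 1.37% of all genes were called. HMGCS1 had 10.27, 10.08 and 10.28 under compound 16, against 10.92, 10.90 and 10.81 in DMSO, and its difference of -0.67 ± 0.11 (adjusted p = 0.000131) was the fourth largest fall of all genes. IDI1 had 10.31, 10.29 and 10.36 under compound 16, against 11.01, 10.93 and 10.89 in DMSO, a difference of -0.62 ± 0.10 (adjusted p = 0.000118). ACAT2 had 10.72, 10.52 and 10.54 under compound 16, against 10.98, 11.13 and 11.09 in DMSO, a difference of -0.47 ± 0.06 (adjusted p = 9.58e-07).

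The other 2 calls at 24 h with serine were FDPS and MVK. FDPS had 11.10, 10.99 and 10.99 under compound 16, against 11.38, 11.39 and 11.35 in DMSO, a difference of -0.35 ± 0.06 (adjusted p = 0.000122). Its second probe set gave -0.21 ± 0.07 and was not called (adjusted p = 0.163). MVK fell by 0.40 ± 0.09 on the log2 scale (adjusted p = 0.0167), a call that was lost with its second probe set, at -0.44 (adjusted p = 0.191), and without array 95, 97 or 98, with differences of -0.47 to -0.35 over the arrays left out. MVD stood at -0.05 ± 0.17, PMVK at -0.01 ± 0.11 and GGPS1 at -0.02 ± 0.06. The interval of MVD, -0.40 to 0.30, is wide, while that of GGPS1 ran from -0.15 to 0.10.

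Whether the effect of compound 16 differed between media was tested as the effect without serine minus the effect with serine. At 0 h and 1.5 h limma called 0 of the 8 enzymes, none with an unadjusted p under 0.05, while 0% and 0.0164% of all genes were called. At 6 h 3 of the 8 were called, beside 0.888% of all genes: HMGCS1 at -0.75 ± 0.15 (adjusted p = 0.0044), MVK at -0.67 ± 0.13 (adjusted p = 0.00316) and IDI1 at -0.59 ± 0.14 (adjusted p = 0.0266). The IDI1 call was lost when any 1 of 7 of the 12 arrays (57, 59, 62, 63, 64, 67 or 68) was left out, with differences of -0.65 to -0.52. With the second probe set of MVK the difference was -0.49 ± 0.20 and not called.

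At 24 h the difference between media was called for ACAT2, MVK and FDPS, beside 1.28% of all genes. ACAT2 had the widest gap, -0.64 ± 0.08 (adjusted p = 1.02e-05), with MVK at -0.58 ± 0.13 (adjusted p = 0.0151) and FDPS at -0.33 ± 0.08 (adjusted p = 0.0199). The MVK call was lost with quantile normalization, at -0.52 (adjusted p = 0.0521), and without array 96 or the third DMSO array without serine, with values of -0.65 to -0.47. The FDPS call was lost with median centring, at -0.29 (adjusted p = 0.0738), and without array 93 or 98, the third compound 16 array or the second DMSO array without serine, with values of -0.36 to -0.29. The second MVK probe set, at -0.75 ± 0.20, was not called (adjusted p = 0.0694). HMGCS1 stood at -0.30 ± 0.15 (adjusted p = 0.469), IDI1 at -0.47 ± 0.14 (adjusted p = 0.106) and MVD at -0.58 ± 0.25 (adjusted p = 0.346). The second probe sets of HMGCS1 and IDI1 were called, at -0.57 ± 0.11 and -0.49 ± 0.12. The medians over the 8 enzymes were -0.08 at 6 h and -0.40 at 24 h, beside -0.01 and 0.00 over all genes.

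Whether the effect of compound 16 changed between 6 h and 24 h was described by its effect at 24 h minus its effect at 6 h. This comparison was added after the values of the same arrays had been seen, and it compares no enzyme with another. Without serine 4 of the 8 enzymes were called, beside 1.73% of all genes. For all 4 the difference from DMSO was more negative at 24 h. ACAT2 had the widest change, -0.99 ± 0.08 (adjusted p = 4.77e-10), followed by FDPS at -0.63 ± 0.08 (adjusted p = 1.53e-06), MVK at -0.56 ± 0.13 (adjusted p = 0.0157) and IDI1 at -0.53 ± 0.14 (adjusted p = 0.0409). The MVK call was lost without array 66 or the third DMSO array at 24 h, at values of -0.63 to -0.45. The IDI1 call was lost without any 1 of 10 of the 12 arrays, at values of -0.57 to -0.47, and of these fits it held only without array 63 or the third compound 16 array at 24 h. It was also lost with median centring. HMGCS1 stood at -0.28 ± 0.15 (adjusted p = 0.496), but its second probe set was called at -0.66 ± 0.11 (adjusted p = 0.000467). With serine 5 were called, beside 0.493% of all genes: HMGCS1 at -0.73 ± 0.15, MVK at -0.65 ± 0.13, IDI1 at -0.64 ± 0.14, ACAT2 at -0.42 ± 0.08 and FDPS at -0.32 ± 0.08. The FDPS call was lost without any 1 of 9 of the 12 arrays (57, 58, 61, 62, 94, 95, 96, 97 or 98), the IDI1 call without array 57, 59, 62, 94 or 96 and the HMGCS1 call without array 57, 62 or 94. Over the arrays left out, FDPS lay at -0.36 to -0.31, IDI1 at -0.71 to -0.58 and HMGCS1 at -0.83 to -0.64.

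**Figure D3:**
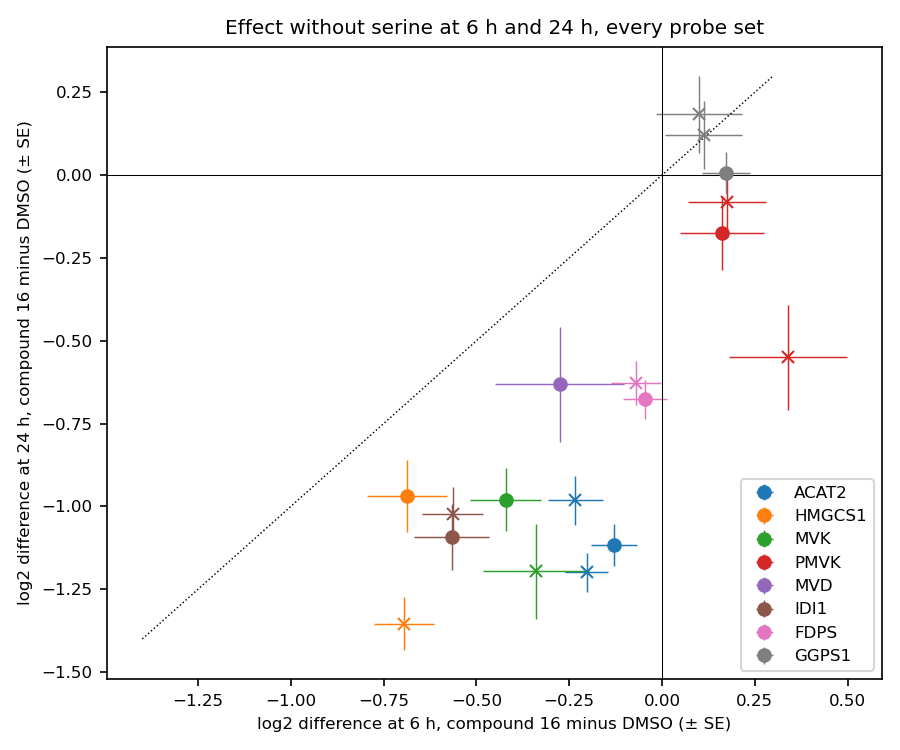
Log2 difference without serine, compound 16 minus DMSO, at 6 h (x axis) and at 24 h (y axis) for every probe set of each enzyme, with circles for the probe set followed in the text, crosses for the others, bars for ± SE and a dotted line of equal effects. The 3 ACAT2 probe sets lie at -0.23 to -0.13 at 6 h and at -1.20 to -0.98 at 24 h, while the HMGCS1 probe sets lie at -0.69 and -0.70 at 6 h.

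The lack of serine by itself was tested as the medium without serine minus the medium with serine in DMSO. ACAT2 and FDPS were lower without serine at 0, 1.5 and 6 h, and no other enzyme passed on the probe set followed here. HMGCS1 at 6 h stood at -0.22 ± 0.11 (adjusted p = 0.369), but passed with its second probe set, at -0.36 (adjusted p = 0.0107), and with the mean of its probe sets. All genes called made up 5.9% at 0 h, 1.97% at 1.5 h and 3.18% at 6 h. At 0 h ACAT2 had 11.26, 11.15 and 11.25 without serine, against 11.58, 11.61 and 11.72 with serine, with no overlap. The ACAT2 differences were -0.42 ± 0.06, -0.38 ± 0.07 and -0.38 ± 0.06 at 0, 1.5 and 6 h. FDPS had 11.25, 11.16 and 11.30 without serine at 0 h, against 11.63, 11.55 and 11.58 with serine. Its differences were -0.35 ± 0.06, -0.40 ± 0.06 and -0.29 ± 0.06 at 0, 1.5 and 6 h. At 24 h limma called 0 of the 8, none with an unadjusted p under 0.05, beside 0.159% of all genes. ACAT2 had 11.02, 11.03 and 11.11 without serine, against 10.98, 11.13 and 11.09 with serine, and the levels overlapped, with a difference of -0.01 ± 0.06 and an interval of -0.13 to 0.11. The DMSO level of ACAT2 with serine had fallen by 0.34 ± 0.06 on the log2 scale between 6 h and 24 h, while that without serine had moved by 0.03 ± 0.06.

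Under compound 16 the same comparison of media called ACAT2 and FDPS at 0 h and 1.5 h, 5 enzymes at 6 h and 4 at 24 h. All genes called made up 4.07% at 0 h, 3.33% at 1.5 h, 11.8% at 6 h and 4.39% at 24 h. At 6 h HMGCS1 had 9.68, 9.53 and 9.98 without serine, against 10.83, 10.48 and 10.77 with serine, a difference of -0.96 ± 0.11 (adjusted p = 1.39e-08). IDI1 stood at -0.82 ± 0.10, MVK at -0.67 ± 0.09, ACAT2 at -0.46 ± 0.06 and FDPS at -0.32 ± 0.06, all called. At 24 h MVK had 6.20, 6.13 and 6.18 without serine, against 6.92, 6.96 and 6.83 with serine, a difference of -0.73 ± 0.09 (adjusted p = 8.78e-07). ACAT2 stood at -0.66 ± 0.06, IDI1 at -0.43 ± 0.10 and FDPS at -0.35 ± 0.06, while HMGCS1 at -0.30 ± 0.11 was not called (adjusted p = 0.109) and MVD at -0.56 ± 0.17 came close (adjusted p = 0.058). The second HMGCS1 probe set was called. MVD was called when the third compound 16 array without serine was left out, at -0.73 (adjusted p = 0.0181), with dim genes left out and with the trended prior. GGPS1 lay between 0.01 and 0.09 at all 4 times.

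**Figure D4:**
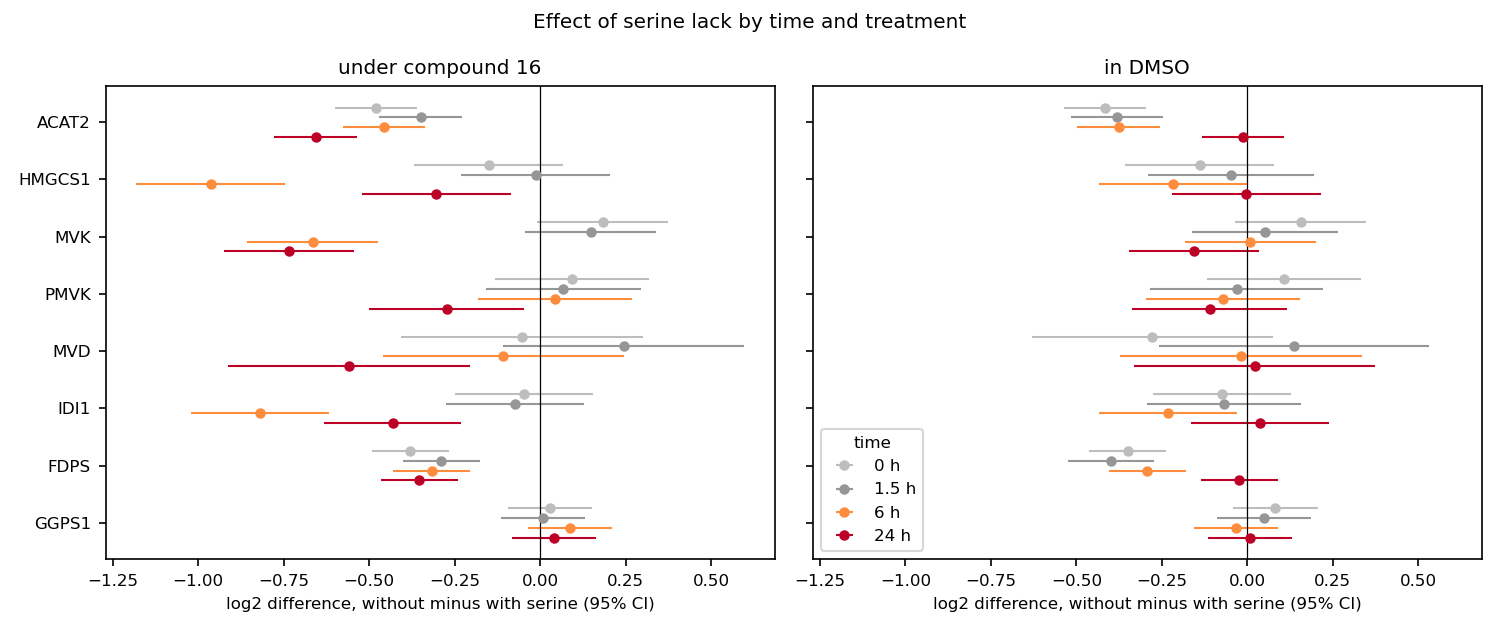
Log2 difference of each enzyme, medium without minus medium with serine (x axis, points with 95% confidence intervals), under compound 16 (left) and in DMSO (right), coloured by time after the addition. In DMSO only ACAT2 and FDPS passed the test on the probe sets plotted, at 0, 1.5 and 6 h, and neither passed at 24 h, while under compound 16 they passed at all 4 times, with ACAT2 at -0.66 at 24 h.

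Over time the enzymes fell into different courses. The arrays of each time, and within a time those of each group, carry consecutive numbers in their titles. Time, group and any order of handling that the numbers reflect therefore cannot be told apart. On the probe sets followed here, HMGCS1 and IDI1 were by group mean highest at 1.5 h in all 4 arms. The 11 arrays of HMGCS1 at 1.5 h lay at 11.02 to 11.19, above all 12 arrays at 0 h, at 10.44 to 10.92. IDI1 lay at 10.87 to 11.21 at 1.5 h and at 10.38 to 10.95 at 0 h, with overlap. In DMSO without serine its levels at 1.5 h, 10.87, 11.21 and 10.97, also overlapped with those at 24 h, 10.93, 11.08 and 10.93. These peaks are descriptions, since 1.5 h was not tested against the other times.

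From 0 h on, 6 h minus 0 h gave 4 lower enzymes under compound 16 without serine, beside 19.8% of all genes: MVK by -1.04 ± 0.09, HMGCS1 by -0.89 ± 0.11, IDI1 by -0.84 ± 0.10 and ACAT2 by -0.22 ± 0.06. In DMSO without serine MVK was lower by -0.66 ± 0.09, PMVK by -0.40 ± 0.11 and ACAT2 by -0.19 ± 0.06, beside 22.4% of all genes. The PMVK call was lost with its second probe set, at -0.10 (adjusted p = 0.586). HMGCS1 and IDI1, at -0.18 ± 0.11 and -0.13 ± 0.10, were called with theirs, at -0.66 (adjusted p = 3.01e-07) and -0.31 (adjusted p = 0.00674). The PMVK call was also lost without array 20, at values of -0.50 to -0.32, and the ACAT2 call without array 19, 21, 66 or 67, at -0.25 to -0.16. With serine, ACAT2 was lower by -0.25 ± 0.06 under compound 16, the only one of the 8 on the probe sets followed here, a count near the background of 14.5% of all genes. The second probe sets of HMGCS1 and MVK were called there, at -0.43 (adjusted p = 0.000383) and -0.49 (adjusted p = 0.0235). In DMSO with serine MVK was lower by -0.51 ± 0.09 and ACAT2 by -0.23 ± 0.06, beside 14.3% of all genes. HMGCS1 stood at -0.10 ± 0.11, but at -0.54 with its second probe set, which was called (adjusted p = 1.66e-05). With median centring the ACAT2 call was lost in 3 of these 4 arms, all but compound 16 with serine. The ACAT2 calls of 2 arms rested on single arrays: without array 65 the adjusted p under compound 16 without serine was 0.0608, and without array 15 that in DMSO with serine was 0.0546.

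From 6 h to 24 h, 4 enzymes fell under compound 16 without serine. ACAT2 fell by a further 0.96 ± 0.06 on the log2 scale, FDPS by 0.56 ± 0.06 and MVK by 0.50 ± 0.09, and PMVK by 0.34 ± 0.11 (adjusted p = 0.0459), beside 10.6% of all genes. The PMVK call was lost without array 64, 65, 99 or 100, at values of -0.41 to -0.28, and also with quantile normalization, median centring or its second probe set, at -0.28, -0.30 and -0.23. HMGCS1 stood at 0.18 ± 0.11 and IDI1 at 0.02 ± 0.10 over the same interval, neither of them called, and MVD at -0.41 ± 0.17 was called only when the third compound 16 array at 24 h was left out (adjusted p = 0.0444). In DMSO without serine, HMGCS1 and IDI1 rose instead, by 0.46 ± 0.11 (adjusted p = 0.00313) and 0.55 ± 0.10 (adjusted p = 0.000156), beside 11.8% of all genes. With serine, 5 enzymes fell between 6 h and 24 h under compound 16, ACAT2 by 0.76 ± 0.06, FDPS by 0.52 ± 0.06, HMGCS1 by 0.48 ± 0.11, MVK by 0.43 ± 0.09 and IDI1 by 0.37 ± 0.10, beside 20% of all genes. In DMSO with serine ACAT2 fell by 0.34 ± 0.06 and FDPS by 0.20 ± 0.06, beside 15.5% of all genes. The FDPS call there was lost without array 60 (adjusted p = 0.0538) and with median centring (adjusted p = 0.0548). HMGCS1 at 0.24 ± 0.11 was called there only without array 61. IDI1 at 0.28 ± 0.10 narrowly missed the threshold (adjusted p = 0.0538) and passed without array 61 and under 5 of the 8 other alternatives, quantile normalization and median centring among them. MVK at 0.22 ± 0.09 passed with quantile normalization.

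**Figure D5:**
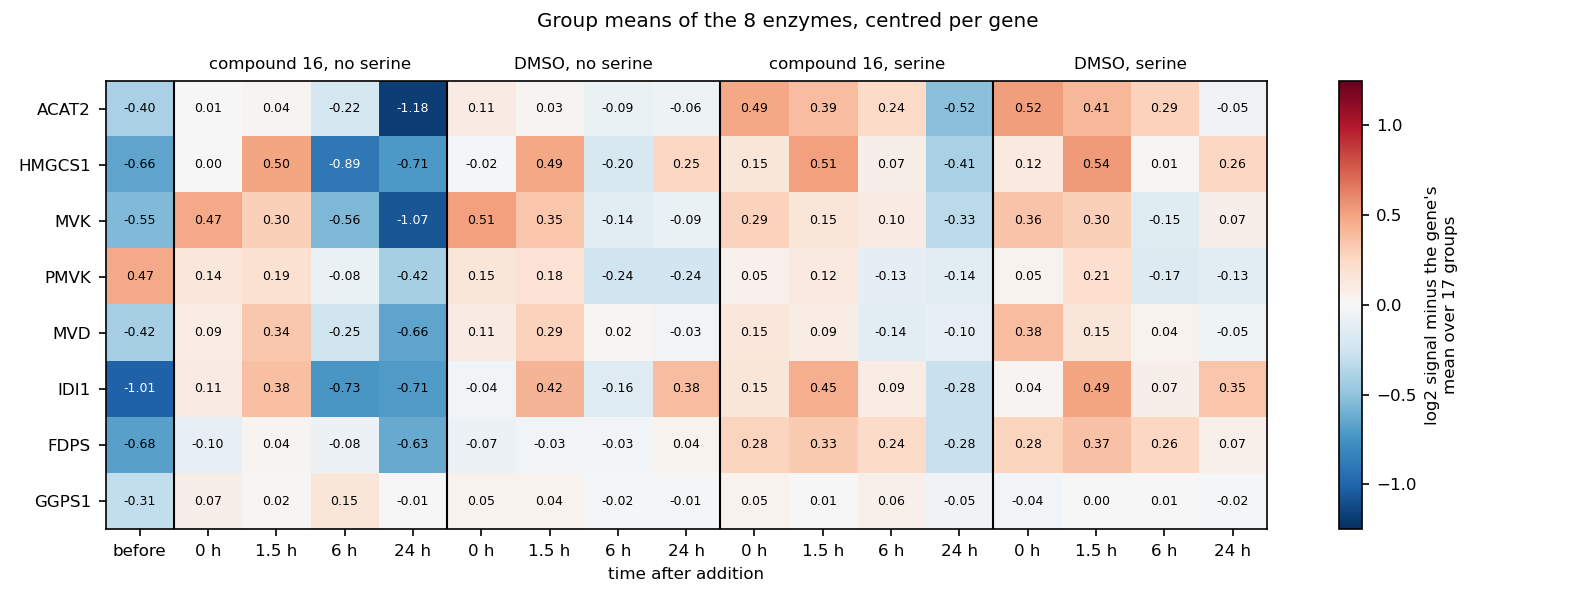
Group mean of each enzyme (rows) in each of the 17 groups (columns), as log2 signal minus the gene's own mean over the groups, red above and blue below that mean. ACAT2 is lowest under compound 16 without serine at 24 h, at -1.18, and IDI1 before the change of medium, at -1.01, while GGPS1 differs little outside the cells before the change.

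On the probe sets followed here, the order of levels differed among the enzymes. For ACAT2 the highest group mean was 11.64 ± 0.07 (SD, n = 3) in DMSO with serine at 0 h, and the next 5 groups in order were all with serine, each within 0.10 of the one above it. Its lowest mean was 9.94 ± 0.08 under compound 16 without serine at 24 h, 0.65 below the next group, compound 16 with serine at 24 h, a gap beyond the spread of both. FDPS had the same 6 groups on top, between 11.68 and 11.55, and its lowest means were 10.63 ± 0.10 before the change and 10.67 ± 0.08 under compound 16 without serine at 24 h, which lay within their spread. For HMGCS1 the 4 groups at 1.5 h stood on top, at 11.16 to 11.11, indistinguishable within their spread. Its 3 lowest means, 9.96 ± 0.08 before the change, 9.91 ± 0.08 under compound 16 without serine at 24 h and 9.73 ± 0.23 at 6 h, also lay within their spread. MVK had its highest means at 0 h without serine, 7.75 ± 0.16 in DMSO and 7.71 ± 0.19 under compound 16. Its lowest, 6.17 ± 0.04 under compound 16 without serine at 24 h, lay 0.50 below that at 6 h.

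IDI1 was lowest before the change of medium, at 9.59 ± 0.16, followed by compound 16 without serine at 6 h, at 9.87 ± 0.11, and at 24 h, at 9.89 ± 0.09. MVD ran from 7.33 ± 0.20 in DMSO with serine at 0 h down to 6.29 ± 0.41 under compound 16 without serine at 24 h, with no gap between neighbours beyond their spread. Its SD within groups, 0.22 over all arrays, was the widest of the 8. PMVK stood highest before the change, at 8.88 ± 0.05, and lowest under compound 16 without serine at 24 h, at 7.99 ± 0.09. GGPS1 lay within 9.81 and 10.01 in the 16 groups after the change, against 9.55 ± 0.04 before it.

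Over the 17 group means, 6 of the enzymes varied together more closely than PMVK and GGPS1 did with them. Pearson's r with the mean of the other 7 was 0.89 for MVK, 0.89 for MVD, 0.87 for HMGCS1, 0.85 for IDI1, 0.85 for ACAT2 and 0.82 for FDPS, against 0.28 for PMVK and 0.29 for GGPS1. Among pairs, HMGCS1 and IDI1 were closest (r = 0.96), then ACAT2 and FDPS (r = 0.90) and MVK and MVD (r = 0.89). PMVK and GGPS1 ran apart (r = -0.36). INSIG1, the sterol-regulated brake on SREBP-2, followed IDI1 (r = 0.83) and HMGCS1 (r = 0.82) more closely than FDPS (r = 0.40) and ACAT2 (r = 0.34). The group means share arrays and normalization, so these values describe and test nothing. Of all other genes, those most like the mean of the 8 were SQLE, the squalene epoxidase (r = 0.97), DHCR7, which makes cholesterol in the last step (r = 0.94), CYP26B1 (r = 0.94), ERG28 (r = 0.92) and NHERF1 (r = 0.92). KCNE4 (r = -0.87), PLIN1, a lipid droplet coat protein (r = -0.87), and MYLIP, an E3 ligase that degrades the LDL receptor (r = -0.82), were the least alike.

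The genes around the 8 enzymes were described by lists, chosen with earlier results of these data known. Of the rest of the mevalonate pathway 2 of 4 listed genes were measured, ACAT1, the mitochondrial thiolase, and IDI2, and 0 were called by limma at 24 h without serine, with IDI2 at -0.26 ± 0.15. Of 13 genes from squalene to cholesterol 11 were measured and all 11 fell under compound 16 at 24 h without serine, with a median of -0.68, beside 0.00 over all genes and 7.06% of genes called. DHCR7 fell by 1.16 ± 0.10, SQLE by 0.98 ± 0.06 and EBP, a sterol isomerase, by 0.91 ± 0.06, all on the log2 scale. At 6 h without serine 4 of the 11 fell, SQLE among them at -0.49 ± 0.06, beside 2.72% of all genes called, and at 24 h with serine 4 of 11, beside 1.37%. After the change of medium 10 of the 11 rose in each medium, beside 28.6% of all genes called without serine and 21.7% with serine.

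Of the 10 measured genes that use isoprenoids for ubiquinone, dolichol and protein prenylation, 0 were called by limma at 24 h without serine, where 7.06% of all genes were called. Their median was 0.08, and 2 of the 10 had an unadjusted p under 0.05. DHDDS, a dolichol synthesis subunit, stood at 0.29 ± 0.12 (adjusted p = 0.163), PGGT1B, a prenyltransferase subunit, at 0.26 ± 0.09 and FNTB, a farnesyltransferase subunit, at -0.12 ± 0.07. Beside the same 7.06%, 2 of 8 measured genes of sterol sensing and uptake fell, INSIG1 by 0.81 ± 0.08 and SREBF2 by 0.43 ± 0.10 on the log2 scale, while STARD4, a sterol carrier, stood at -0.47 ± 0.19 (adjusted p = 0.145). INSIG1 was already lower by -1.13 ± 0.08 at 6 h without serine (adjusted p = 1.9e-12), and the difference between media at 6 h was -0.98 ± 0.12 (adjusted p = 7.59e-07). Of 4 measured genes listed under cholesterol export, not all of them exporters, 2 rose at 24 h without serine, beside 7.06% of all genes called. They were the transporters ABCG1, by 0.80 ± 0.19, and ABCA1, by 0.42 ± 0.13. MYLIP, which acts on the LDL receptor, stood at 0.17 ± 0.10. PKM stood at -0.35 ± 0.07 at 24 h without serine (adjusted p = 0.000227), a fall, and at -0.10 ± 0.07 with serine (adjusted p = 0.62).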

How the data were processed

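Labels and protocols give total RNA, extracted with Trizol from A549 cells and hybridised as biotin-labelled material to 50 arrays. The authors deposited log2 probe set signals made with RMA, per the submitters' processing notes, which also name limma. Neither version is stated there. Of 49386 probe sets, 45253 carry 1 gene symbol in the platform annotation, 1327 carry several, 2713 none and 93 are controls. Those with 1 symbol gave 18239 genes, each by its probe set of highest mean. One limma model (3.58.1, R 4.3.3) over 17 group means and 50 arrays, with 33 residual degrees of freedom, gave 32 comparisons, with Benjamini-Hochberg adjustment within each and calls at 0.05. The fit was run on simulated data with planted differences and independent noise on each array, which checks the code and not the calls given here.

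The 8 enzymes and the gene lists were chosen with earlier results of these data known. Named are all 8, from each list the 3 genes with the smallest p for compound 16 minus DMSO without serine at 24 h, the 5 genes most and 3 least like the mean of the 8 over group means, INSIG1 and PKM. The 2 comparisons of effects at 24 h and 6 h were added after the values had been seen. Alternatives were another choice of probe sets, quantile normalization, median centring, omission of dim genes (mean below the 40th percentile), array weights, a trended robust prior, a fit of only the arrays compared, and omission of each array. Array number limits the precision.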

Additional observations from a re-analysis of the deposited data

Results flagged for a closer look

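A test of the difference itself found that the effect of compound 16 was not the same in medium without serine as in medium with serine for these values, given as the effect without minus the effect with serine. At 6 h they were HMGCS1 at -0.75, MVK at -0.67 and IDI1 at -0.59. At 24 h they were ACAT2 at -0.64, MVK at -0.58 and FDPS at -0.33. The effect at 24 h minus that at 6 h, added after the values had been seen, passed for ACAT2 at -0.99, FDPS at -0.63, MVK at -0.56 and IDI1 at -0.53 without serine. With serine it passed for HMGCS1 at -0.73, MVK at -0.65, IDI1 at -0.64, ACAT2 at -0.42 and FDPS at -0.32. All are limma differences on the log2 scale with 3 arrays a group. Groups of 3 were not searched for single arrays that stand apart, but each array was left out in turn. Several of these calls were then lost. The IDI1 call between media at 6 h was lost in 7 of 12 such fits. For the effect at 24 h minus that at 6 h, IDI1 without serine was lost in 10 of 12 and FDPS with serine in 9 of 12.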

How the results depend on the processing

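No paired analysis was possible because the numbers in the titles run through the series and the groups share none. Of 3848 values of the 8 enzymes under alternatives, 3685 kept their side of the threshold, 128 lost a call and 35 gained one, and 0 values that were called in either fit changed sign. Of 87 calls, 45 held under every alternative run. With only the arrays of a comparison in the fit, which leaves fewer arrays to estimate the spread, the number of enzymes called was 1 in place of 3 for compound 16 against DMSO without serine at 6 h and 1 in place of 5 with serine at 24 h. In that fit it was 1 in place of 3 for the media compared in their effects, at 6 h as at 24 h, and 2 in place of 4 without serine and 0 in place of 5 with serine for the effect at 24 h minus that at 6 h. It was 0 in place of 2 for the lack of serine in DMSO at 0, 1.5 and 6 h and under compound 16 at 0 and 1.5 h, and 2 in place of 4 under compound 16 at 24 h. For 6 h minus 0 h it was 0 in place of 1 under compound 16 with serine, 1 in place of 3 in DMSO without serine and 1 in place of 2 in DMSO with serine, and for 24 h minus 6 h in DMSO with serine 0 in place of 2. Other settings changed fewer counts, and the cause was not tested. Quantile normalization gave 4 in place of 2 for 24 h minus 6 h in DMSO with serine, and centring 1 in place of 2 for 6 h minus 0 h there. The mean of all probe sets gave 3 in place of 1 for 6 h minus 0 h under compound 16 with serine and 5 in place of 3 for the difference between media at 24 h. The second probe set of each gene gave 3 in place of 1, 3 in place of 5 for compound 16 with serine at 24 h, and 3 in place of 5 for its effect at 24 h minus 6 h with serine. With 1 array left out, counts ranged from 1 to 4 for 24 h minus 6 h in DMSO with serine (arrays 60 and 61), from 1 to 2 for 6 h minus 0 h there (array 15), from 2 to 5 for the effect at 24 h minus 6 h with serine (arrays 57, 62, 94 and 96) and from 2 to 4 without serine (array 66 and the third DMSO array at 24 h).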
